A study of Mus musculus with 8 samples.

Results

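The comparison described here is the response to estradiol (E2), the main ovarian estrogen, in uterine stromal cells labelled as deleted for the autophagy gene Atg7. It rests on 4 of the 8 libraries of the series, 2 from mice given oil and 2 from mice given E2, chosen by their titles and without use of any measured value. The animals were ovariectomized (OVX) mice, and C57BL/6-ICR is their stated strain. The deleted group is labelled Atg7d/d and carries floxed Atg7 together with a Cre recombinase under control of Amhr2 (Atg7f/f;Amhr2cre), which is known to be expressed in uterine mesenchyme, the cells from which stroma and muscle derive. The other 4 libraries come from Atg7f/f mice with the floxed gene intact, again 2 given oil and 2 given E2, and they are used here to share 1 estimate of the spread and to set the response beside that of intact stroma. A group with the recombinase but without floxed Atg7 is not among the 8 libraries. Dose, time after injection, age, the way the stroma was separated, and whether the 2 libraries of a group came from separate animals are not stated in the labels, so the spread behind each p-value is that between these libraries and may be technical.

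Estradiol acts through the estrogen receptor encoded by Esr1, which enters the nucleus and regulates genes directly and through other transcription factors. In the uterus the stroma answers the hormone with growth factors, such as IGF1, that act on the overlying epithelium, with changes in matrix and blood vessel permeability, and with changes in receptors for progesterone. ATG7 is the enzyme that starts the conjugation reactions which build autophagosomes, the vesicles in which cells enclose their own components for breakdown in lysosomes. Levels are given as CPM, the reads of a gene relative to the scaled library total, in the order oil library 1, oil library 2, E2 library 1, E2 library 2. The libraries hold reads from the 3′ ends of transcripts, so that reads do not grow with transcript length and levels of different genes can be set side by side without a length correction. A gene is said to have risen or fallen where its adjusted p in edgeR's quasi-likelihood test, with Benjamini-Hochberg adjustment over all tested genes, was below 0.05. Fold changes are log2 values of E2 over oil with an approximate standard error (SE). It was worked out as the absolute log2 change divided by the square root of the F value of the same test. Each gene said to have risen or fallen passed also when any 1 of the 4 deleted libraries was left out, except where the text names the libraries without which it did not.

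The 8 libraries held 5458390 to 6951080 counts, and the 4 deleted libraries held 6494804 and 6172646 (oil) and 5458390 and 6035061 (E2). Of 23238 gene symbols, 13347 had enough reads to be tested. Across genes, which are not independent replicates, the 2 deleted oil libraries correlated with r = 0.969 and the 2 deleted E2 libraries with r = 0.978, and 7.38% and 5.16% of genes lay more than 2-fold apart within these pairs. The first principal component of the 4 libraries carried 77.2% of their variance, with the oil libraries at -58.5 and -51.0 and the E2 libraries at 59.5 and 50.04. The second carried 13.2% and separated oil library 1, at 31.0, from oil library 2, at -33.2. Atg7 itself (chromosome 6, 114643097 to 114860614, plus strand, GENCODE M21 on GRCm38) had 21 and 33 reads in oil and 23 and 22 after E2, or 3.32, 5.199, 4.14 and 3.56 CPM. Its log2 change with E2 was -0.15 ± 0.43 (adjusted p = 0.829). Reads from the 3′ end still count where internal exons are lost, so these reads do not check the deletion.

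Estradiol moved 3242 of the 13347 tested genes in deleted stroma, 24.3%, of which 1746 rose (13.1%) and 1496 fell (11.2%). The median change of the genes that rose was 1.21 on the log2 scale and that of the genes that fell was -1.23, against a median of 0.02 over all tested genes. Of the genes that passed, 1141 were at least 2-fold higher (8.55% of those tested) and 988 at least 2-fold lower (7.4%), 118 and 113 at least 8-fold, and 29 and 26 at least 32-fold. Both E2 libraries lay above both oil libraries in 35.5% of tested genes and below them in 32.7%, whether or not the gene passed. The genes that rose took 9.43% and 9.93% of the reads in oil and 23.4% and 22.0% after E2, and the genes that fell took 19.96% and 18.97% in oil and 8.63% and 9.14% after E2. The share of genes that passed grew with the level, from 14.96% of the 4424 genes below 10 CPM to 27.0% of the 6935 genes from 10 to 100 CPM and 35.6% of the 1988 genes above 100 CPM. Among all called genes, 619 passed in each of the 4 fits that left out a deleted library, 421 of them higher and 198 lower after E2. The number of genes that passed was 1289 and 1634 without oil library 1 or 2 and 740 and 1065 without E2 library 1 or 2, in fits where the lone library left in a group is assumed to vary like the other groups. The cells were measured in bulk, so fewer cells of a type and less RNA per cell cannot be told apart in any of these changes.

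**Figure D1:**
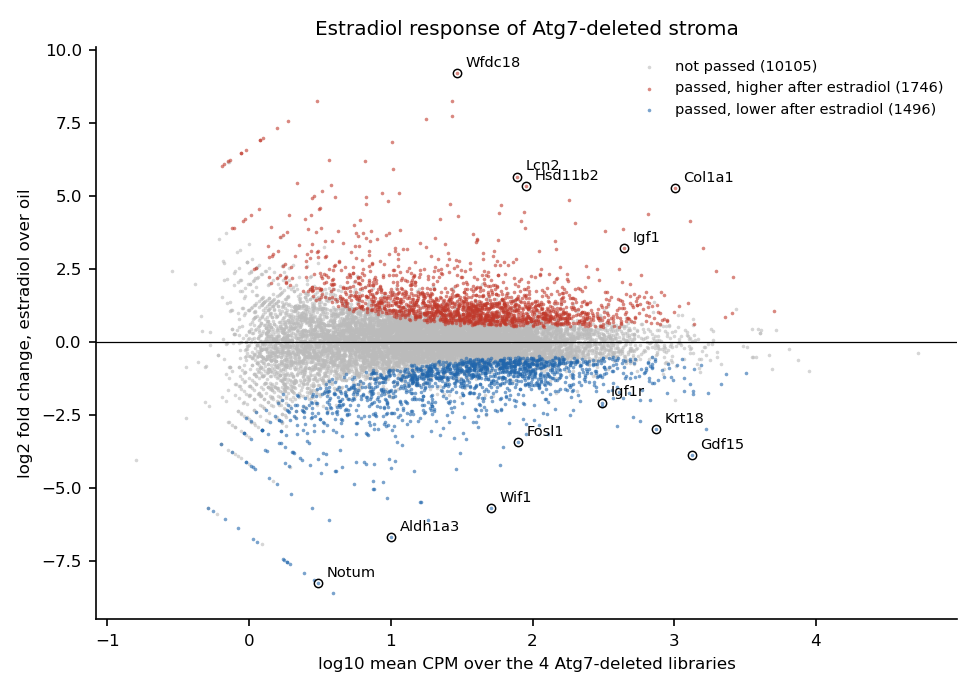
Change with estradiol in Atg7-deleted stroma for the 13347 tested genes, as log2 fold change of E2 over oil (vertical axis) against the log10 mean CPM over the 4 deleted libraries (horizontal axis). Each point is a gene; the 1746 genes that rose are red, the 1496 that fell are blue, the others grey, and 12 genes named in the text are circled. Genes that passed lie at every level, from Notum with no read after E2 to Col1a1 at 1929 and 2036 CPM after E2.

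The largest rises and falls were ranked among called genes with at least 10 CPM on average and no overlap between oil and E2. Their separation is therefore a condition of the choice and not a result. The largest rises were in genes that were nearly silent in oil. Wfdc18 (chromosome 11, 83709015 to 83711348, plus strand), a member of the whey acidic protein family, had 1 and 0 reads in oil and 342 in each E2 library, or 0.158, 0, 61.5 and 55.3 CPM. Its reads were 738-fold higher after E2, with a 95% counting interval of 132 to 29210. Aoc1 (chromosome 6, 48872896 to 48909188, plus strand), the diamine oxidase that degrades histamine and polyamines, stood at 0.316, 0, 63.5 and 44.3 CPM, a ratio of 338 (93.3 to 2801). Both genes were at 2 reads or fewer in oil. Counting intervals cover counting error only.

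Crabp1 (chromosome 9, 54764748 to 54773110, plus strand), which binds retinoic acid in the cytoplasm, was at 0.474, 0, 61.0 and 47.4 CPM, a ratio of 227 (77.5 to 1106). The secreted matrix protein gene Crtac1 was at 0.316, 0, 40.3 and 30.1 CPM, a ratio of 221 (60.9 to 1834). Tmprss11a, a transmembrane serine protease gene, went from 0 and 0.315 to 24.3 and 16.2 CPM, a ratio of 127 (34.7 to 1054). All of these had at most 3 reads in either oil library.

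Genes with a measurable level in oil rose by up to 5.66 on the log2 scale. Lcn2 (chromosome 2, 32384633 to 32388252, minus strand), which encodes an iron-siderophore binding protein, was at 3.48 and 2.52 CPM in oil and 152 and 153 CPM after E2, a change of 5.66 ± 0.35 (adjusted p = 0.000162). Hsd11b2 (chromosome 8, 105518755 to 105523988, plus strand) encodes an enzyme converting active glucocorticoids to inert forms. It was at 2.85, 5.83, 202 and 151 CPM, a change of 5.34 ± 0.40. Col1a1 (chromosome 11, 94936224 to 94953042, plus strand), which makes the alpha 1 chain of fibrillar collagen, was at 42.7, 61.3, 1929 and 2036 CPM, a change of 5.25 ± 0.32. That both E2 libraries lay above both oil libraries in these 3 genes follows from how they were chosen.

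Further large rises were those of Ngfr, a neurotrophin receptor (10.4, 13.6, 412 and 291 CPM, 4.87 ± 0.34), and of Fabp5, a fatty acid binding protein (5.37, 3.62, 133 and 97.2 CPM, 4.67 ± 0.26). Spon1, a secreted adhesion protein, was at 6.95, 8.04, 183 and 149 CPM, a change of 4.46 ± 0.31. Bcat1, which transaminates branched-chain amino acids in the cytosol, was at 6.64, 3.78, 120 and 100.6 CPM, a change of 4.395 ± 0.36. The plasma protein gene Hp (haptoglobin) was at 3.003, 0.788, 68.6 and 32.8 CPM, and the secretoglobin Scgb3a1 at 0.316, 0.315, 25.4 and 15.7 CPM. Aldh1a7 differed most between the E2 libraries, at 39.2 and 5.18 CPM against 0.948 and 0.315 in oil, and it did not pass without either oil library or without E2 library 1 (highest adjusted p = 0.0945).

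The largest falls included a retinaldehyde dehydrogenase and a secreted Wnt inhibitor. Aldh1a3 (chromosome 7, 66390890 to 66427517, minus strand), which makes retinoic acid, had 161 and 91 reads in oil and 2 and 0 after E2, or 25.4, 14.3, 0.360 and 0 CPM, so that oil was higher by a ratio of 117 (31.98 to 969). Gkn3, a gastrokine gene, went from 46.2 and 26.5 to 0.180 and 0.809 CPM, a change of -6.10 ± 0.64. Wif1 (chromosome 10, 121033960 to 121100650, plus strand), which binds and holds back Wnt proteins, went from 115 and 84.6 to 2.34 and 1.46 CPM, a change of -5.72 ± 0.41 (adjusted p = 0.000249). The separation of oil and E2 libraries in these genes likewise follows from how they were chosen.

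Enzyme genes made up a good part of the other large falls. Inmt, a methyltransferase of indoleamines, was at 30.03, 33.9, 1.26 and 0.162 CPM (-5.50 ± 0.53), and Ces1d, a carboxylesterase, at 28.9, 26.8, 0.900 and 1.62 CPM (-4.43 ± 0.43). Gstm7, a glutathione transferase, was at 71.3, 43.8, 4.68 and 3.56 CPM (-3.80 ± 0.37). Pamr1, a secreted protease-like gene, was at 114, 114, 7.74 and 11.0 CPM (-3.60 ± 0.30), with nearly equal oil libraries.

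Among the other large falls, Gdf15 is known from stress and Cldn1 and Krt17 from epithelium. Oil library 1 was the higher oil library in each gene that follows, and also in Aldh1a3, Gkn3, Wif1, Ces1d and Gstm7 above. In Inmt and Pamr1 it was slightly the lower. Gdf15 (chromosome 8, 70629393 to 70632456, minus strand), a secreted stress-response cytokine, was at 3212, 1814, 150 and 188 CPM, a change of -3.90 ± 0.59. The tight junction gene Cldn1 was at 151, 74.4, 4.86 and 7.12 CPM (-4.22 ± 0.60), the keratin gene Krt17 at 25.6, 18.9, 2.16 and 1.62 CPM (-3.55 ± 0.33), and the NMDA receptor subunit gene Grin2b at 48.4, 14.97, 0.720 and 0.647 CPM (-5.50 ± 0.74). Snhg11 was at 89.9, 19.2, 3.60 and 1.78 CPM and did not pass without oil library 1 or without either E2 library (highest adjusted p = 0.113). Ttr, which carries thyroxine and retinol-binding protein, was at 28.9, 11.7, 0.720 and 1.62 CPM and did not pass without the same 3 libraries (highest adjusted p = 0.123). Sh3rf2 was at 25.6, 12.8, 0.360 and 1.46 CPM and did not pass without E2 library 1 (adjusted p = 0.0723). Summed markers of epithelium moved in the same direction as these genes, at 12000, 5262, 1854 and 2409 CPM over 29 markers, 28 of them tested. Their part in these falls and in the other large falls above was not tested.

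**Figure D2:**
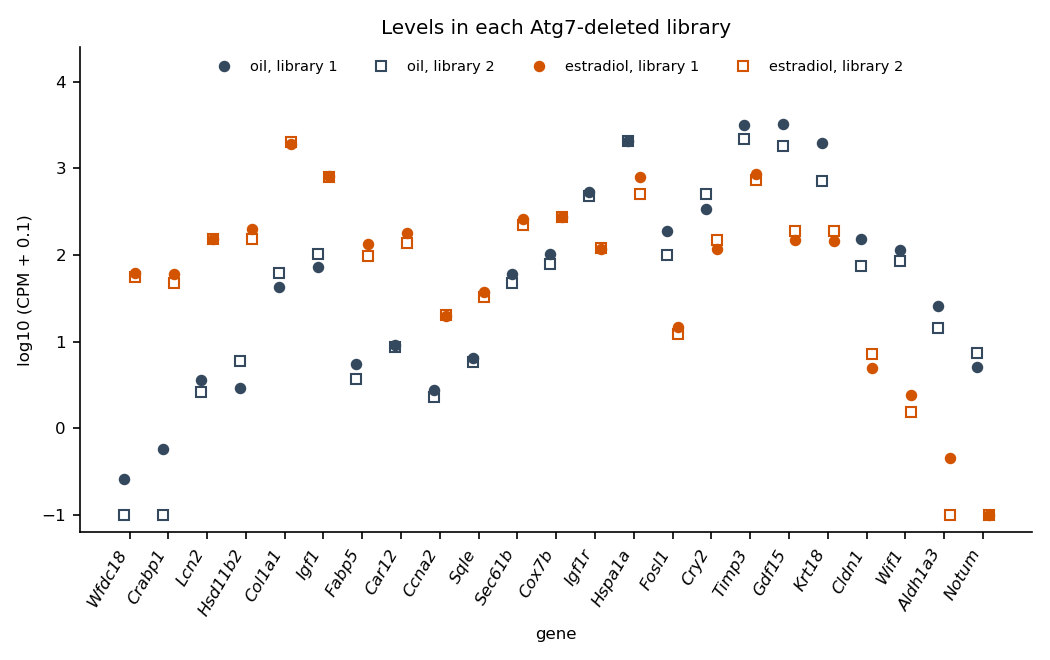
Level of 23 genes in each of the 4 Atg7-deleted libraries, as log10 of CPM plus 0.1 (vertical axis), with oil libraries in dark grey and E2 libraries in orange, library 1 as filled circles and library 2 as open squares. Genes are ordered from risers at the left to fallers at the right, and a point at -1 is a library with no read. The oil and E2 libraries do not overlap in any of the 23 genes, which for the largest rises and falls was a condition of the choice. The libraries of a group lie farthest apart in genes with few reads and, in oil, in Krt18, Cldn1 and Fosl1.

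A few genes were without a read in 1 group. Notum, which encodes a secreted enzyme that inactivates Wnt proteins (chromosome 11, 120653788 to 120661175, minus strand), had 32 and 46 reads in oil and none after E2, so that it was at least 24.1-fold lower, taking 3 reads over the E2 group as the limit that a count of 0 allows. The kinesin gene Kif12 had 21 and 24 reads in oil and none after E2, at least 13.9-fold lower, and the non-coding RNA 5930412G12Rik had 57 and 42 reads and none, at least 30.6-fold lower. Cdk15, Acot5, Prom2, Gpr3, Nwd2 and 9030625G05Rik were also at 0 reads after E2 with 44 to 73 reads summed over oil, but each failed to pass without E2 library 1 (adjusted p from 0.0502 for Prom2 to 0.114 for Acot5). Of these, Acot5, Nwd2 and 9030625G05Rik did not pass without oil library 1 or E2 library 2 either, nor did Gpr3 without E2 library 2. In the other direction, Atp10b, a phospholipid-transporting ATPase, had 0 reads in oil and 31 and 40 after E2, at least 25.6-fold higher. Akr1cl, an aldo-keto reductase gene, had 0 reads in oil and 16 and 29 after E2, at least 16.2-fold higher.

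Of the transcripts with the highest levels, most did not pass. The ribosomal precursor Rn45s was the highest in every deleted library at 55980, 63100, 41450 and 49160 CPM. Actb was at 7840, 6180, 5423 and 6461 CPM and Malat1 at 11890, 6351, 6229 and 5614 CPM, with overlap between oil and E2 for Actb. Among the 10 highest after E2, Tmsb4x, which encodes the actin-binding peptide thymosin beta 4, rose from 3332 and 3222 to 6839 and 6810 CPM (1.06 ± 0.20), though not without E2 library 1 (adjusted p = 0.0567). Among the 10 highest in oil, Tpt1 fell from 4677 and 4031 to 1926 and 2170 CPM (-1.09 ± 0.24), though not without oil library 1 or either E2 library (highest adjusted p = 0.122). Wdr89 and Rplp2-ps1, both among the 10 highest after E2, had nearly the same reads in every library (25491 and 25490 in oil library 1), so their levels stand for shared reads and neither can be read as a gene of its own.

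The rest of the response is described by 41 lists of genes and 11 lists of cell type markers, some sharing members. A list's count and median describe it beside the 13.1% of all tested genes that rose, the 11.2% that fell and the overall median of 0.02, and no test was made of a list as a whole. Where a range follows a count of members, it is over the 4 fits that each left out 1 deleted library. Fewer genes passed in those fits. A count given without a range is not thereby more stable.

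**Figure D3:**
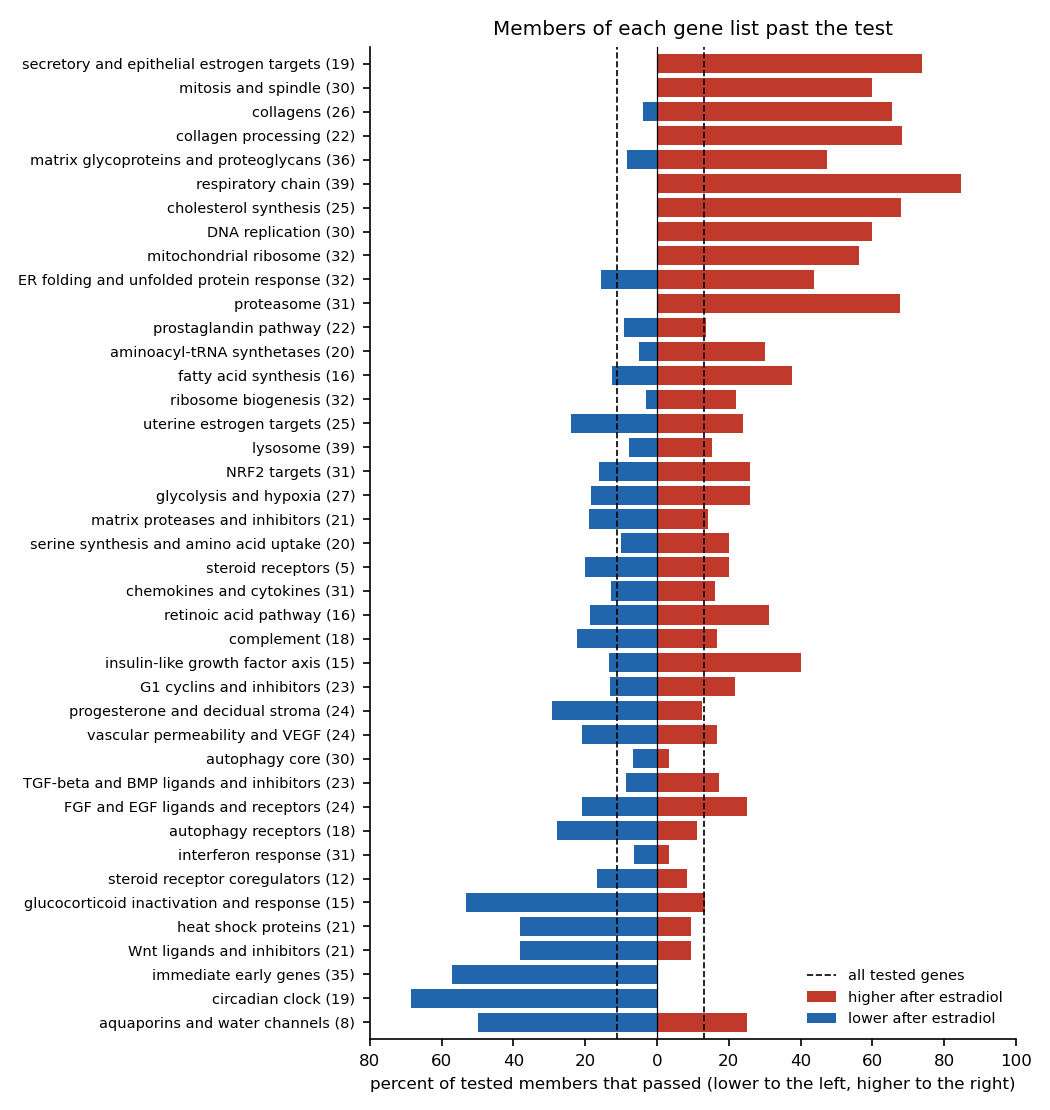
Percent of the tested members of each of 41 gene lists that rose (red, to the right) or fell (blue, to the left) with E2 in Atg7-deleted stroma, with the number of tested members after each name and the lists ordered by their median change. Dashed lines mark the shares over all tested genes, 13.1% and 11.2%. Respiratory chain genes have the highest share of rises, 33 of 39, and circadian clock genes the highest share of falls, 13 of 19.

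Of the steroid receptors, Esr1, through which estradiol acts, was at 283, 302, 300 and 332 CPM, with overlapping groups and a change of 0.11 (adjusted p = 0.67). The progesterone receptor Pgr was at 220, 277, 347 and 416 CPM, a change of 0.62 ± 0.19 (adjusted p = 0.0405), which did not pass without any 1 of the 4 deleted libraries. The membrane estrogen receptor gene Gper1 was at 6.80, 5.04, 1.62 and 1.29 CPM, a change of -2.01 ± 0.56 that likewise did not pass without any 1 of the 4. The glucocorticoid receptor Nr3c1 was at 31.3, 40.7, 37.2 and 40.3 CPM. In 12 receptor coregulators, 1 was higher, Fkbp5 of the receptor chaperone complexes, and 2 were lower, the histone acetyltransferase genes Ep300 and Crebbp (-0.80 ± 0.21 and -0.63 ± 0.18). None of the 3 passed without any 1 of the 4 deleted libraries.

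Among genes known to answer estrogen in the uterus, 6 of 25 were higher (4 in each left-out fit) and 6 lower (0 to 4). Igf1 (chromosome 10, 87858265 to 87937042, plus strand), the growth factor by which stroma drives epithelial growth, was at 71.9, 101.2, 808 and 791 CPM, a change of 3.21 ± 0.26 (adjusted p = 0.000501). Wnt5a, a Wnt ligand of the stroma, was at 17.1, 16.5, 83.7 and 75.5 CPM (2.24 ± 0.27), and Ramp3, a receptor subunit for adrenomedullin, at 251, 320, 824 and 789 CPM (1.496 ± 0.22). The E2 libraries were close to each other in these 3 genes. Vegfa, which raises vessel permeability, was lower after E2 at 457, 378, 138 and 148 CPM (-1.55 ± 0.25), though not without E2 library 1 (adjusted p = 0.0547). The early targets Fos, Myc, Ccnd1 and Egr1 had overlapping oil and E2 libraries, Fos for example at 1045, 1619, 1619 and 1070 CPM. No 300-base promoter window of the 19 members with one held the full estrogen response element, GGTCA and TGACC separated by 3 bases and searched on both strands, nor did those of the 10082 tested genes with a window except 1. That window spans 250 bases before to 50 after a start site, and estrogen receptors are known to bind far from promoters, so nothing follows from it about the receptor.

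Secreted products and epithelial targets of estrogen had the highest median of the pathway lists, 3.05, with 14 of 19 members higher (9 to 11) and none lower. Padi1, an enzyme that converts arginine to citrulline in proteins, was at 32.7, 26.0, 257 and 271 CPM (3.17 ± 0.33). The acute phase gene Saa3 was at 1.58, 4.10, 48.4 and 65.4 CPM (4.32 ± 0.46), and the complement component C3 at 40.8, 29.2, 188 and 203 CPM (2.48 ± 0.32). Aqp8, a water channel, was at 0.948, 0.788, 13.9 and 9.71 CPM (3.73 ± 0.38). Among 28 general markers of epithelium none rose and 8 fell, and the part of epithelial content in the changes of this list was not tested. Muc1, Muc4, Krt19, Clu and Ptgs1 were the members of the secretory and epithelial target list that did not pass.

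The progesterone and decidual list had 3 of 24 members higher and 7 lower (0 to 1 and 1 to 3). The leukemia inhibitory factor receptor gene Lifr was at 49.3, 41.6, 13.1 and 20.7 CPM (-1.42 ± 0.24). Ihh, the hedgehog ligand that epithelium sends to stroma, was at 9.01, 3.47, 0.360 and 0.485 CPM (-3.81 ± 0.70), though not without E2 library 1 or 2 (adjusted p = 0.065 and 0.0528). Hoxa11, a transcription factor of uterine stroma, was at 72.5, 110, 210 and 199 CPM (1.17 ± 0.26) and did not pass without oil library 1 or either E2 library (highest adjusted p = 0.0897). The stromal regulators Hand2 and Nr2f2 had values of 27.8, 39.2, 30.6 and 45.9 CPM and 205, 207, 252 and 284 CPM, neither past the test.

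In the insulin-like growth factor axis 6 of 15 members rose (4 to 5) and 2 fell (1 in each left-out fit), and the ligand and its receptor moved in opposite directions. While Igf1 rose, its receptor gene Igf1r (528, 474, 116 and 120 CPM) fell by 2.09 on the log2 scale (SE 0.19, adjusted p = 0.000677). The binding protein genes Igfbp5 (100.5, 100, 294 and 270 CPM, 1.49 ± 0.21) and Igfbp2 (3.003, 1.26, 17.1 and 17.6 CPM, 3.02 ± 0.47) rose, as did Htra1, a protease that cleaves matrix and IGF binding proteins (47.1, 83.5, 207 and 200 CPM, 1.64 ± 0.26). Igf2 was at 23.6, 30.9, 9.90 and 13.1 CPM and did not pass (adjusted p = 0.063).

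Among 21 Wnt ligands and secreted inhibitors, 2 rose (1 to 2) and 8 fell (2 to 5), with a median of -0.90. The inhibitors Wif1 and Notum fell, as given above, and Wnt5a rose. Sfrp1, a further secreted inhibitor, was at 15.01, 11.7, 3.78 and 4.21 CPM (-1.73 ± 0.38), though not without oil library 1 or either E2 library (highest adjusted p = 0.0992). Frzb, of the same family, was at 26.9, 27.4, 75.9 and 53.4 CPM (1.25 ± 0.24), though not without oil library 1 or E2 library 1 (highest adjusted p = 0.0784). The inhibitors therefore did not share a direction. The TGF-beta and BMP list had 4 of 23 members higher and 2 lower (1 to 2 and 0 to 1). FGF and EGF ligands and receptors had 6 of 24 higher and 5 lower, but only 0 to 1 passed in either direction in the left-out fits. Hbegf, an EGF receptor ligand, was at 1164, 646, 247 and 325 CPM (-1.66 ± 0.36) and did not pass without oil library 1 or either E2 library (highest adjusted p = 0.116).

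Of 16 retinoic acid genes, 5 rose (4 to 5) and 3 fell (1 to 2). The synthesizing enzyme Aldh1a2 rose from 20.1 and 27.7 to 336 and 191 CPM (3.46 ± 0.38) while Aldh1a3, which runs the same reaction, fell to at most 2 reads per library. Rdh10, which supplies the retinaldehyde for both, was at 19.8, 13.6, 118 and 85.9 CPM (2.62 ± 0.28), and the binding protein genes Crabp1 and Rbp7 (6.32, 4.57, 17.5 and 27.3 CPM, 2.04 ± 0.32) rose with it. Aldh1a1 had overlapping libraries at 106, 73.7, 147 and 29.9 CPM.

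Glucocorticoid response genes were mostly lower, 8 of 15 (2 to 5), and 2 were higher (1 in each left-out fit). The higher members were the inactivating enzyme Hsd11b2, given above, and Fkbp5 (14.4, 12.6, 37.6 and 25.9 CPM, 1.23 ± 0.36), which did not pass without any 1 of the 4 deleted libraries (highest adjusted p = 0.228). Metallothionein genes Mt1 and Mt2, which glucocorticoids and metals induce, were at 715, 531, 195 and 185 CPM (-1.72 ± 0.21) and 1528, 1254, 595 and 523 CPM (-1.32 ± 0.19). Tsc22d3, the glucocorticoid-induced leucine zipper, was at 45.4, 56.7, 22.0 and 25.9 CPM (-1.09 ± 0.20), and Per1 at 418, 441, 165 and 204 CPM (-1.22 ± 0.21). Neither Tsc22d3 nor Per1 passed without E2 library 1 (adjusted p = 0.0728 and 0.0666). Among the 5 members with no call, Klf9 was at 1079, 1224, 1022 and 1127 CPM and Sgk1 at 171, 228, 221 and 216 CPM, with overlapping groups. Of 8 water and ion channel genes, 2 rose and 4 fell (2 and 0 to 3). The chloride channel Cftr was at 0.790, 1.10, 10.3 and 16.7 CPM (3.81 ± 0.47). The water channel Aqp1 was at 780, 591, 282 and 290 CPM (-1.26 ± 0.22), though not without E2 library 1 (adjusted p = 0.06). Aqp5 was at 237, 164, 37.6 and 35.1 CPM (-2.46 ± 0.53), though not without oil library 1 or either E2 library (highest adjusted p = 0.096).

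Cell cycle genes rose from low levels. Of 30 DNA replication genes, 18 rose (7 to 10) and none fell, with a median of 0.96, and of 30 mitosis and spindle genes 18 rose (9 to 11) and none fell, with a median of 1.63. Tk1, which salvages thymidine for DNA synthesis, was at 2.85, 1.26, 18.2 and 20.5 CPM (3.23 ± 0.36). The replication helicase subunit gene Mcm5 was at 12.8, 10.9, 33.8 and 49.2 CPM (1.81 ± 0.26). Ccna2, the cyclin of S phase and entry into mitosis, was at 2.69, 2.21, 19.6 and 20.2 CPM (3.02 ± 0.27), and Cdk1, the mitotic kinase, at 14.5, 16.5, 67.8 and 95.3 CPM (2.39 ± 0.24). Top2a, which untangles chromosomes, was at 19.8, 20.6, 62.6 and 75.9 CPM (1.78 ± 0.21) and Aurkb, a kinase of the centromere, at 0.316, 0.315, 5.04 and 4.69 CPM (3.86 ± 0.54). Both E2 libraries lay above both oil libraries in each of these genes. Pcna, at 33.0, 49.3, 45.3 and 49.0 CPM, did not pass.

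Of 23 regulators of G1, 5 rose (1 to 3) and 3 fell (2 in each left-out fit), and the genes that fell included inhibitors of the cycle. Cdkn1c, which encodes the inhibitor p57, was at 88.2, 98.8, 16.7 and 19.4 CPM (-2.37 ± 0.21, adjusted p = 0.000649). Cdkn1a, which encodes p21, was at 274, 315, 129 and 132 CPM (-1.17 ± 0.16). E2f1, a transcription factor for S phase genes, was at 8.22, 7.25, 34.9 and 41.7 CPM (2.31 ± 0.22). The D cyclin genes Ccnd1 and Ccnd3 had no call, at 340, 173, 248 and 223 CPM and 216, 262, 259 and 275 CPM.

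The promoters of the replication and mitosis genes are shown because both lists rose together and each holds a motif named for such genes. Windows of 300 bases, from 250 before to 50 after each start site in RefSeq (GRCm38.p6), were searched on both strands. E2F sites, taken as TTTGGCGC, TTTCCCGC, TTTCGCGC or TTTGCCGC, which may overlap each other on opposite strands, stood in 12 of 25 replication genes with a window (48.0%) and in 4.56% of the 10082 tested genes with a window. The cell cycle homology region TTTGAA stood in 18 of 26 mitosis genes (69.2%) and in 14.2% of tested genes. Over all genes that rose, these shares were 4.72% and 16.5%. The member of each list with the largest change that held its motif was Uhrf1, a reader of DNA methylation at replication forks (2.37, 1.58, 11.9 and 13.6 CPM, 2.68 ± 0.33), and Anln, a scaffold of the dividing cell's contractile ring (0.158, 0.315, 6.84 and 3.56 CPM, 4.34 ± 0.94). Anln did not pass without either oil library or E2 library 1 (highest adjusted p = 0.0836). Capitals mark the motif, and a match is a description of these letters only. The Uhrf1 stretch is chr17:56304068-56304195 on the plus strand, with its motif starting 185 bases before the start site, and the Anln stretch is chr9:22389165-22389194 on the minus strand, with 2 matches from 21 bases after it.
Uhrf1: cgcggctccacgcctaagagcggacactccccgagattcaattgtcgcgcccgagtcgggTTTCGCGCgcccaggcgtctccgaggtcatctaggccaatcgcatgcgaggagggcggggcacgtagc
Anln: gcgctgaaaTTCAAAtTTTGAAcggccgtg

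Matrix genes were among the most abundant that rose. Of 26 collagen genes 17 rose (11 to 13) and 1 fell (0 to 1), with a median of 1.61. Besides Col1a1, its partner chain Col1a2 was at 90.6, 187, 2615 and 2299 CPM (4.14 ± 0.48), Col3a1 at 35.6, 83.0, 1390 and 1098 CPM (4.39 ± 0.52), and the type VI chains Col6a2 and Col6a3 at 49.8, 60.8, 870 and 752 CPM (3.87 ± 0.27) and 280, 337, 3287 and 2465 CPM (3.22 ± 0.27). Oil library 2 was the higher oil library in all of these, and both E2 libraries were far above it. Col6a1, Col5a3 and Col4a2 rose too, Col4a2 of the basement membrane by a smaller 1.37 ± 0.20. Col8a1 was the member that fell (13.4, 12.3, 3.78 and 5.99 CPM, -1.39 ± 0.30), though not without oil library 1 or E2 library 1 (highest adjusted p = 0.108).

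Enzymes and chaperones that fold and cross-link collagen rose with it, 15 of 22 (8 to 14) and none lower. Serpinh1, the collagen chaperone HSP47, was at 548, 689, 3686 and 2987 CPM (2.43 ± 0.21), Fkbp10, a prolyl isomerase of the endoplasmic reticulum, at 40.1, 37.0, 175 and 199 CPM (2.28 ± 0.21), and Loxl1, a lysyl oxidase, at 12.3, 13.9, 41.6 and 40.6 CPM (1.65 ± 0.24). Of 36 glycoproteins and proteoglycans, 17 rose (10 to 18) and 3 fell (1 to 3). Sparc, a collagen-binding matrix protein, was at 801, 1031, 4375 and 4172 CPM (2.22 ± 0.22), Fn1 (fibronectin) at 150, 153, 520 and 467 CPM (1.70 ± 0.16) and Vcan (versican) at 14.5, 18.1, 131 and 87.4 CPM (2.74 ± 0.27). Not all matrix genes rose: Dcn (decorin) was at 1384, 1526, 1131 and 1102 CPM without passing. Prelp, a leucine-rich proteoglycan gene, fell from 42.7 and 58.0 to 14.6 and 13.9 CPM (-1.82 ± 0.28). Matrix proteases and their inhibitors had 3 of 21 higher and 4 lower (0 to 2 and 1 to 3), led by the inhibitor Timp3 at 3178, 2190, 867 and 735 CPM (-1.75 ± 0.24).

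Genes of cholesterol synthesis rose in 17 of 25 members (6 to 10), with none lower and a median of 1.10. Sqle, which makes squalene epoxide, was at 6.32, 5.67, 37.6 and 33.0 CPM (2.55 ± 0.24, adjusted p = 0.000766), and Mvd of the mevalonate branch at 5.53, 5.52, 25.4 and 26.5 CPM (2.23 ± 0.36). Srebf2, the transcription factor of the pathway, was at 75.9, 59.4, 138 and 153 CPM (1.10 ± 0.18). The E2 libraries were close together in each of these. A sterol response element, written TCACNCCAC, stood in 1 of 17 members with a promoter window (5.88%), Hmgcs1, and in 1.33% of tested genes. Hmgcs1, which makes the precursor of mevalonate, was at 131, 113, 254 and 221 CPM (0.96 ± 0.17), though not past the test without E2 library 1 (adjusted p = 0.0611). Its stretch is chr13:119690154-119690282 on the plus strand, with the motif in capitals starting 137 bases before the start site.
Hmgcs1: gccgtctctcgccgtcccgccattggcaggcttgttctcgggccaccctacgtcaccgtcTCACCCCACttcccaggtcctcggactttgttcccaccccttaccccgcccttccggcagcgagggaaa

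Fatty acid synthesis was mixed, with 6 of 16 higher (1 to 3) and 2 lower (0 to 1). Me1, which supplies NADPH, was at 17.4, 13.1, 51.6 and 55.3 CPM (1.81 ± 0.25). Fasn, the fatty acid synthase, was at 72.7, 68.9, 132 and 138 CPM (0.93 ± 0.18) but did not pass without oil library 2 or either E2 library (highest adjusted p = 0.0586).

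Nuclear genes of the respiratory chain had the highest share of members that passed, 33 of 39 higher (19 to 22) and none lower, each by a modest amount. The median was 1.10 and the range over members 0.17 to 2.11. Cox7b of complex IV was at 102, 78.8, 274 and 273 CPM (1.59 ± 0.19), Uqcrq of complex III at 116, 136, 345 and 323 CPM (1.40 ± 0.17), Sdhc of complex II at 86.3, 96.3, 244 and 239 CPM (1.41 ± 0.19) and Atp5e of the ATP synthase at 91.8, 86.5, 271 and 353 CPM (1.81 ± 0.26). The groups did not overlap in any of these 4 genes. Mitochondrial ribosome genes rose in 18 of 32 members (9 to 11) with none lower and a median of 0.95, for example Mrpl18 at 14.7, 13.2, 49.1 and 60.2 CPM (1.97 ± 0.22) and Mrpl12 at 37.9, 39.4, 129 and 141 CPM (1.80 ± 0.22).

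Protein synthesis and turnover genes moved less evenly. Proteasome subunits rose in 21 of 31 members (5 to 9), none lower, with a median of 0.72. Psmd14, the deubiquitinating subunit, was at 33.2, 39.2, 92.7 and 84.6 CPM (1.29 ± 0.18) and Psma5, a subunit of the core, at 11.4, 17.5, 41.6 and 45.6 CPM (1.59 ± 0.27). Ribosome biogenesis genes rose in 7 of 32 members (0 to 4) with 1 lower, and transfer RNA synthetases in 6 of 20 (1 to 3) with 1 lower. Hars, the histidine enzyme, was at 27.8, 30.9, 63.9 and 67.9 CPM (1.17 ± 0.20).

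Of 32 genes of the endoplasmic reticulum, 14 rose (8 to 12) and 5 fell (2 to 4). Sec61b, a subunit of the channel through which secreted proteins enter, was at 60.1, 47.4, 262 and 221 CPM (2.17 ± 0.25), and the folding enzymes Pdia4 and P4hb at 41.4, 40.02, 123 and 97.5 CPM (1.43 ± 0.20) and 468, 427, 1119 and 1028 CPM (1.26 ± 0.18). The stress factor genes Atf3 (1069, 842, 384 and 374 CPM, -1.34 ± 0.19) and Ppp1r15a (1560, 1745, 670 and 736 CPM, -1.23 ± 0.18) fell. Hspa5, the chaperone BiP, was at 3482, 2552, 4220 and 3921 CPM and Xbp1 at 274, 298, 311 and 309 CPM, neither past the test. The endoplasmic reticulum stress response element, CCAAT and CCACG separated by 9 bases, stood in 7 of 27 members with a promoter window (25.9%), against 0.179% of tested genes and 0.516% of all genes that rose. The member with the largest change among them was Pdia6, a disulfide isomerase at 210, 156, 574 and 489 CPM (1.54 ± 0.25). Its stretch is chr12:17266431-17266569 on the plus strand, with the motif in capitals starting 98 bases before the start site.
Pdia6: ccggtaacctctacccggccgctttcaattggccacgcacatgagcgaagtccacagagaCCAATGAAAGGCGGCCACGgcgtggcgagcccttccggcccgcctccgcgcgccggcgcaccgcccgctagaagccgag

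Of glycolysis and hypoxia genes, 7 of 27 rose and 5 fell (1 to 2 and 0 to 5). Car12, a membrane carbonic anhydrase, was at 9.17, 8.67, 180 and 136 CPM (4.14 ± 0.24, adjusted p = 0.000162). The glucose transporter gene Slc2a1 was at 236, 120, 49.7 and 58.2 CPM (-1.72 ± 0.35), though not past the test without oil library 1 or either E2 library (highest adjusted p = 0.096). Of 20 genes of serine synthesis and amino acid uptake, 4 were higher and 2 lower (2 to 5 and 0 to 2). Slc38a2, an amino acid transporter, was at 948, 860.3, 465 and 494 CPM (-0.92 ± 0.18), though not past the test without oil library 1 or either E2 library (highest adjusted p = 0.0858). Mthfd1l was at 33.2, 31.0, 93.9 and 100 CPM (1.60 ± 0.19) and Aldh1l2 at 0.790, 1.89, 20.2 and 16.01 CPM (3.73 ± 0.45), both mitochondrial folate enzymes.

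Immediate early genes, which cells switch on within minutes of a stimulus, were lower after E2: 20 of 35 fell (9 to 15) and none rose, with a median of -0.91. Fosl1, a partner of JUN in the AP-1 factor, was at 191, 99.4, 14.8 and 12.1 CPM (-3.43 ± 0.45), and Egr4 at 83.6, 57.8, 13.9 and 10.2 CPM (-2.56 ± 0.28). Klf2 was at 533, 564, 176 and 170 CPM (-1.66 ± 0.17, adjusted p = 0.000922), Jund at 1842, 1954, 630 and 760 CPM (-1.45 ± 0.19) and the orphan nuclear receptor Nr4a3 at 194, 179, 60.6 and 61.5 CPM (-1.61 ± 0.21). The groups were apart in each of these, whereas Fos, Fosb, Egr1, Cyr61 and Klf6 had no call. Immediate early and heat shock genes are also known to rise while tissue is handled. Both lists were lower after E2, the labels do not describe handling, and its part in the result was not tested. The cyclic AMP response element TGACGTCA stood in 3 of 28 members with a promoter window (10.7%) and in 3.56% of tested genes. The largest change among the 3 was that of Maff, a small MAF factor at 132, 148, 65.7 and 49.3 CPM (-1.28 ± 0.37), which did not pass without any 1 of the 4 deleted libraries. Its stretch is chr15:79347431-79347549 on the plus strand, with the motif in capitals starting 29 bases before the start site.
Maff: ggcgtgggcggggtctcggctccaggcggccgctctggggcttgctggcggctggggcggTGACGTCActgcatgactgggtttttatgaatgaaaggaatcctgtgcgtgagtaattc

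Heat shock genes fell in 8 of 21 members (4 to 7) and rose in 2 (0 to 1). The inducible chaperone genes Hspa1a and Hspa1b were at 2081, 2064, 786 and 506 CPM (-1.68 ± 0.26) and 1384, 1354, 458 and 348 CPM (-1.77 ± 0.23), with reads that could be shared between these near-identical copies. The small heat shock protein gene Hspb1 was at 1744, 1813, 476 and 634 CPM (-1.68 ± 0.20). Oil libraries were almost equal in these genes, and both E2 libraries were below them. Hsp90ab1, a constitutive chaperone, was at 4115, 2950, 4646 and 4773 CPM with no call. Heat shock elements, alternating GAA and TTC in 3 units with 2 bases between units and beginning with either, which can overlap each other, stood in 3 of 15 members with a promoter window (20%) and in 0.585% of tested genes. Hsph1, a co-chaperone at 369, 282, 173 and 149 CPM (-1.02 ± 0.29), held one and did not pass without any 1 of the 4 deleted libraries. Its stretch is chr5:149636287-149636316 on the minus strand, with the motif in capitals starting 36 bases after the start site. The other holders, Hspd1 and Hspe1, have windows that overlap each other. Hspd1 did not pass, and Hspe1 was higher with an adjusted p of 0.0491, which did not hold without any 1 of the 4 deleted libraries.
Hsph1: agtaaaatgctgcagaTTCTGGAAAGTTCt

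Circadian clock genes fell in 13 of 19 members (3 to 10), none rose, and the median was -1.17. Cry2, a repressor of the clock, was at 342, 511, 117 and 148 CPM (-1.68 ± 0.23), and Hlf, an output factor, at 37.0, 45.1, 14.6 and 12.1 CPM (-1.62 ± 0.23). The activators Clock (44.6, 45.4, 39.6 and 46.4 CPM) and Arntl (11.7, 8.67, 13.7 and 7.60 CPM) had overlapping groups. The hour at which each group was taken is not stated in the labels, and its part in the result was not tested.

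Autophagy genes are of interest because the cells are labelled as deleted for Atg7, and few of them moved. Of 30 core genes 1 rose and 2 were lower, 10% against 24.3% of all tested genes, with a median of -0.17. Wipi1, which binds the forming autophagosome, was at 19.0, 18.9, 69.8 and 44.0 CPM (1.59 ± 0.27). The lower members were Map1lc3a, which did not pass without any 1 of the 4 deleted libraries (highest adjusted p = 0.214), and Map1lc3b. Map1lc3b, the LC3 protein that ATG7 helps to conjugate to lipid, was at 296, 328, 159 and 166 CPM (-0.94 ± 0.17), though not past the test without either E2 library (adjusted p = 0.0686 and 0.0524). Atg5, Atg3 and Becn1 had no call, at 32.1, 26.8, 36.5 and 34.8 CPM, 28.6, 32.6, 39.8 and 32.03 CPM, and 155, 114, 154 and 146 CPM. Of 18 cargo receptors, 5 were lower and 2 higher (1 to 5 and 0). Sqstm1, which encodes p62, was at 884, 794, 366 and 423 CPM (-1.09 ± 0.17), though not without E2 library 1 (adjusted p = 0.0561), and Calcoco1 at 76.5, 86.7, 16.4 and 31.2 CPM (-1.77 ± 0.29). These are transcript levels and say nothing of the p62 protein.

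Lysosome genes were near the background, 6 of 39 higher and 3 lower (2 to 4 and 2). Mitf, a transcription factor of lysosomal genes, was at 107, 93.9, 22.1 and 18.8 CPM (-2.29 ± 0.20, adjusted p = 0.000561), the collagen-degrading protease Ctsk at 8.38, 13.4, 70.9 and 51.4 CPM (2.49 ± 0.35), and the protease Ctsf at 29.2, 33.6, 5.94 and 8.90 CPM (-2.07 ± 0.31). NRF2 targets, genes of antioxidant defence, split into 8 of 31 higher and 5 lower (2 to 6 and 2 to 4). Hmox1, which degrades heme, was at 171, 159, 46.6 and 70.2 CPM (-1.50 ± 0.23) and Gsr, glutathione reductase, at 30.03, 37.7, 72.2 and 85.2 CPM (1.22 ± 0.19). Nqo1 was at 11.4, 11.0, 16.6 and 17.0 CPM with no call.

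Among 31 chemokines and cytokines, 5 rose and 4 fell (2 to 3 and 1 to 4). Ccl28, a chemokine of mucosal surfaces, was at 1.58, 0.945, 15.5 and 13.9 CPM (3.52 ± 0.48), and Ccl8, which draws monocytes, at 2.53, 4.10, 32.6 and 31.1 CPM (3.26 ± 0.55). Cxcl15 was at 65.1, 46.6, 9.36 and 9.22 CPM (-2.59 ± 0.31). Interferon response genes had 1 of 31 higher and 2 lower, 9.68% called, below the background share. In the prostaglandin and lipoxygenase list 3 of 22 rose and 2 fell. Alox15, which oxygenates arachidonic and linoleic acid, was at 11.1, 5.52, 42.3 and 44.8 CPM (2.39 ± 0.35) and Ptges2, a prostaglandin E synthase, at 3.48, 3.62, 12.1 and 13.1 CPM (1.82 ± 0.28). Of 24 vascular genes 4 rose (3 to 4) and 5 fell (1 to 3). Plvap, which forms the diaphragms of permeable vessels, was at 29.4, 44.4, 163 and 179 CPM (2.21 ± 0.25), and Cldn5, the tight junction protein of vessel walls, at 156, 179, 37.4 and 36.1 CPM (-2.19 ± 0.28), while Pecam1 (306, 442, 275 and 344 CPM) and Cdh5 (74.3, 84.9, 81.3 and 77.2 CPM) of the same cells had no call.

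The labelled cell type was checked with marker lists. Stromal fibroblast markers were present in all 4 libraries, with Vim at 552, 824, 1026 and 951 CPM and the uterine factor Emx2 at 116, 140, 191 and 153 CPM, and 14 of 26 were higher and 1 lower after E2 (7 to 9 and 1). Their sum was 3757, 4483, 11780 and 10660 CPM, but collagens are among them. The fibroblast marker that fell was Clec3b, at 176, 178, 38.3 and 17.3 CPM (-2.67 ± 0.36). Epithelial markers were also present, with a sum of 12000, 5262, 1854 and 2409 CPM. That sum was above the fibroblast sum in both oil libraries and below it in both E2 libraries. The lists differ in their genes, so their sums do not give shares of cells. None of the 28 tested epithelial markers was at 0 in all deleted libraries. Of these, 8 fell (1 to 9) and none rose (0 to 1 in the left-out fits). Cldn4 was at 4233, 1747, 304 and 440 CPM (-3.01 ± 0.63), Krt18 at 1946, 713, 145 and 187 CPM (-3.00 ± 0.64) and Krt8 at 1267, 717, 119 and 180 CPM (-2.73 ± 0.57). Oil library 1 was well above oil library 2 in all 3, which did not pass without oil library 1 or either E2 library (highest adjusted p = 0.107). Other epithelial genes did not follow, among them Cldn7 (381, 185, 162 and 216 CPM) and Prom1 (143, 89.8, 144 and 141 CPM).

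Smooth muscle markers summed to 5991, 7983, 12110 and 14340 CPM, above the fibroblast sum in each of the 4 libraries. Of these markers, 7 of 20 rose and 1 fell (1 to 3 and 0). Hhip, a hedgehog-binding protein, was at 0.158, 0.788, 11.5 and 14.4 CPM (4.72 ± 0.53), while Myh11, the smooth muscle myosin, was at 585, 712, 778 and 939 CPM with no call. Endothelial markers summed to 2828, 3013, 2543 and 2823 CPM, macrophage markers to 206, 234, 374 and 303 CPM, and erythroid markers to 245, 259, 372 and 403 CPM. Of the defining markers, Ear1 (granulocytes), Slc4a1 (red cells), Adipoq, Plin1 and Lep (fat) were at 0 in all 4 libraries. Granulocyte and mast cell markers summed to at most 52.2 CPM and lymphocyte and natural killer markers to at most 41.6 CPM. The endothelial sum was slightly lower in both E2 libraries, and the fibroblast, smooth muscle, macrophage and erythroid sums were higher in both E2 libraries. The part of these shifts in the changes of matrix, contractile and vessel genes was not tested.

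**Figure D4:**
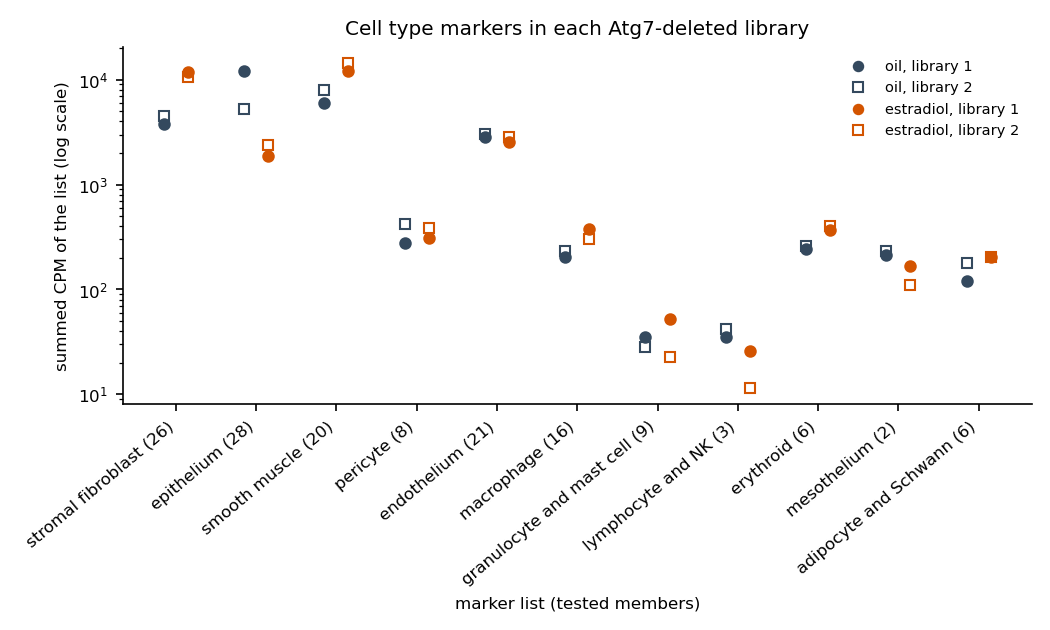
Summed CPM (vertical axis, log scale) of each of 11 cell type marker lists in the 4 Atg7-deleted libraries, with oil libraries in dark grey and E2 libraries in orange, library 1 as filled circles and library 2 as open squares. The epithelial sum falls from 12000 and 5262 CPM in oil to 1854 and 2409 CPM after E2, the fibroblast sum is higher after E2, and the endothelial sum is slightly lower, at 2543 and 2823 CPM against 2828 and 3013 CPM in oil.

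Set beside the response of intact stroma, the response of deleted stroma had the same direction in nearly all called genes. In Atg7f/f stroma 3978 genes passed (29.8%), and 2699 genes passed in both genotypes with the same sign, which is 83.3% of the deleted calls and 67.9% of the intact calls. No gene passed in opposite directions. The 543 genes that passed with Atg7 deleted but not with it intact had the same sign in intact stroma in 530 cases, and the 1279 of the converse kind in 1259 cases. Such one-sided calls do not show a difference between genotypes. The difference itself, the interaction in edgeR's quasi-likelihood test, passed for 0 of 13347 genes, and DESeq2 also gave 0. At an unadjusted p below 0.05 the interaction held 210 genes (1.57%), and the median SE of the difference was 0.41 on the log2 scale. That share is below the 0.05 that a calibrated test gives when no gene differs, so the interaction test may be conservative here. A count of 0 genes therefore does not show that the responses were equal.

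The 5 smallest unadjusted interaction p-values, from 0.000798 to 0.00153 and all with an adjusted p of about 1, were those of Actc1, Paox, Cdk1, Ube2c and Knstrn. Actc1, the cardiac actin, had a log2 change of 3.45 ± 0.43 with Atg7 deleted (0.948, 1.42, 11.9 and 14.4 CPM) and of 0.39 ± 0.44 with it intact. Paox, a polyamine oxidase, had 0.02 ± 0.33 against 2.31 ± 0.34. The mitotic genes Cdk1, Ube2c and Knstrn had 2.39 against 3.97, 1.60 against 3.51 and 1.37 against 4.32. With Atg7 deleted, Ube2c did not pass without E2 library 2 (adjusted p = 0.0528), nor Knstrn without any 1 of the 4 libraries. Over the mitosis and spindle list, 28 of 30 members had a smaller log2 change in deleted than in intact stroma, with a median difference of -0.78 against -0.01 over all tested genes, and the median stayed between -1.03 and -0.56 with any 1 of the 8 libraries left out. In 7 of the 30 the unadjusted interaction p was below 0.05 (23.3%, against 1.57% of tested genes). Mean levels of the list's members summed to 163 CPM in deleted and 143 CPM in intact stroma in oil, and to 444 and 724 CPM after E2. The DNA replication list had 28 of 30 members below 0 with a median difference of -0.46 (-0.67 to -0.34). Collagens (-0.13), respiratory chain (-0.03) and immediate early genes (-0.06) had median differences near that of all genes. Other lists lay further from it: smooth muscle markers at -0.45 (18 of 20 below 0, range -1.22 to 0.05 with 1 library left out), cholesterol synthesis at -0.38 (21 of 25, -0.54 to -0.20), interferon response at -0.33 (26 of 31, -0.64 to -0.08) and the prostaglandin list at 0.45 (8 of 22, 0.09 to 0.64). No gene of any list passed the adjusted test, so these medians describe the 8 libraries, and a difference between genotypes was not shown.

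**Figure D5:**
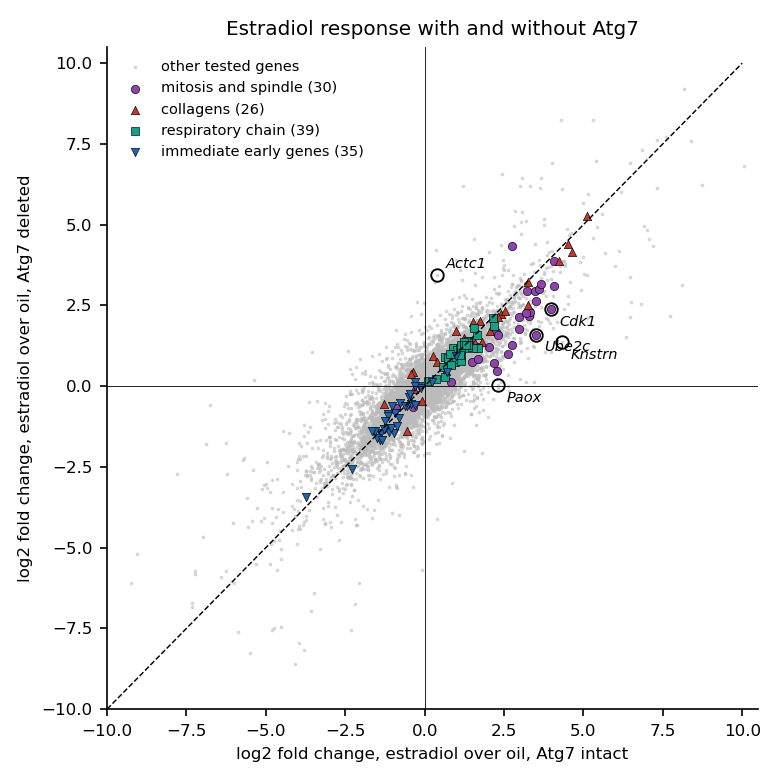
Log2 fold change of E2 over oil in Atg7-deleted stroma (vertical axis) against that in intact stroma (horizontal axis) for 13347 tested genes, with 4 gene lists in colour, 5 genes circled and the dashed line of equal change. Points follow the line (r = 0.867 across genes), and 28 of 30 mitosis and spindle genes lie below it.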

How the data were processed

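The authors deposited raw read counts per gene symbol, 1 file per library and not normalized, made from 500 ng of total RNA with a QuantSeq 3′ kit per the labels. Bowtie2, edgeR and the build mm10 are named in the submitters' processing notes without role or version, and the read counter is not given in the sources used here. Of the 35 symbols on several lines (79 of 23282 lines), only the line with most reads entered, and the others held 0.0815% to 0.110% of a library. The filterByExpr function (minimum count 10, total 15) kept 13347 genes with 99.9% of counts. Scaling used TMM (factors 0.918 to 1.03), and CPM carry it. Tests were edgeR 4.0.16 quasi-likelihood tests (R 4.3.3) on 1 model of the 4 groups (8 libraries, 4 residual and 5.08 prior degrees of freedom, biological coefficient of variation 21.8%), with Benjamini-Hochberg adjustment at 0.05. On simulated counts with 200 genes changed in the deleted E2 group, 13.3% of 2-fold and 77.8% of 4-fold changes were recovered. In the data 3242 genes passed, and the adjustment is less strict where more genes change. These shares therefore do not measure how many changes the real fit detected.

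Genes named are Atg7, the 15 largest rises and falls past the test with at least 10 CPM and no overlap, genes at 0 in a group against at least 40 reads, the 10 highest per group, up to 5 members per list by adjusted p, 3 markers per list by level, the 5 smallest interaction p-values, and members that complete a family or hold a printed motif. List members with no call (such as Fos or Pcna) and Clec3b, Prelp and Col8a1 were named after their values were seen. Promoters printed are those of the listed member with the largest passed change that holds the motif, cut to the motif with up to 60 bases on each side and at most 30 transcribed bases, from RefSeq; 10082 tested genes had a window. The lists and members were chosen with earlier results of these data known. Coordinates are from GENCODE M21 (GRCm38). Alternatives were RLE and library-total scaling, DESeq2 1.42.0, other count filters, summed lines, a replicate block, the deleted libraries alone, and each library left out. Some genes that the rule selects are not reported here.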

Additional observations from a re-analysis of the deposited data

How the results depend on the processing

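The number of genes that passed in deleted stroma, 3242, was 3242 with RLE scaling, 3199 with library totals alone, 3238 with DESeq2, 3726 of 18240 without a filter, 3169 of 11481 with a minimum count of 30, 3242 with same-symbol lines summed and 4257 of 12848 in the 4 deleted libraries alone. DESeq2 gave 1609 higher and 1629 lower, and no scaling moved the median of all genes beyond -0.01 to 0.04. Leaving out 1 of the 8 libraries gave 740 to 4345 genes, 511 to 2324 of them higher and 229 to 2021 lower, and 731 to 2493 at 2-fold or more. The interaction was 0 genes under each alternative that includes control libraries, with 138 (DESeq2) to 999 (without control oil library 2) below an unadjusted 0.05. With the replicate number as a block 3423 genes passed; replicate differences correlated at -0.01 between deleted oil and deleted E2, -0.23 between control oil and control E2, 0.49 between the oil groups and 0.23 between the E2 groups. The remaining pairs were at -0.17 (control E2 and deleted oil) and -0.03 (control oil and deleted E2). Only the value between the oil groups stood apart, since that between the E2 groups was no larger in size than -0.23. Each value rests on 1 replicate difference per group. The interaction with the block was 0 genes (249 unadjusted). That block is 1 term common to all groups, so it cannot take up deviations shared only within oil or only within E2. The main interaction test does not model such sharing either, and its effect was not tested. Of 247 named genes that passed, 0 to 8 lost the call except without a deleted library (46 to 98 lost), and none reversed. Medians of 11 lists changed sign under some alternative, among them interferon response (-0.41, 0.04 without deleted oil library 2), TGF-beta and BMP (-0.17, 0.21 without the same), adipocyte and Schwann markers (0.21, -0.20 without deleted oil library 1) and granulocyte markers (-0.03, 1.79 without deleted oil library 1). With 2 libraries a group, many changes near 2-fold may not have been detected, although 1113 of the genes that passed changed by less than 2-fold.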
